A study of Mus musculus with 12 samples.

Results

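The 10 genes of calcium cycling in the heart muscle cell were followed through the RNA of 12 mouse hearts: Ryr2, Jph2, Trdn and Asph of the release unit, Atp2a2 and Pln of uptake, Casq2, Casq1 and Hrc of the store, and Slc8a1 of exchange across the cell membrane. Their rows were found by gene name, and they make up 10 of the 13552 genes in the table. All 10 passed the filter for testing, at least 1 RPKM in 3 mice, which 11240 genes passed. RPKM counts reads by kilobase of exon and relative to all reads on genes of a heart, so levels of different genes can be set side by side.

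The mice were C57BL/6 males of 8 to 10 weeks, and hearts were taken 9 h after surgery. Transverse aortic constriction (TAC) is a surgical narrowing of the aorta that makes the left ventricle pump against a higher pressure, and sham mice were operated on without it. Wild type (WT) mice and knock-in mice carrying Bcl-xL S14A (KI) were each given sham surgery or TAC, which makes 4 groups of 3 mice. In the KI mice, which the paper describes as homozygous, serine 14 of the survival protein Bcl-xL is replaced by alanine in every cell. The selection cassette had been removed with CMV-Cre. WT mice were bought rather than bred beside the KI line, so genotype and source cannot be told apart. A codon change does not show in expression levels, so the genotype could not be checked from these values.

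At each heartbeat, calcium that enters through the L-type channel opens ryanodine receptor 2 on the sarcoplasmic reticulum, and the calcium released from that store starts contraction. The pump SERCA2a, encoded by Atp2a2, returns calcium to the store against the brake set by phospholamban, while the sodium-calcium exchanger carries calcium out of the cell. Lower SERCA2a and higher exchanger are familiar features of the overloaded and failing heart.

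In WT hearts TAC lowered Atp2a2 and Hrc and raised Slc8a1. In KI hearts TAC lowered Pln and Jph2, and neither Hrc nor Slc8a1 passed the test there. After TAC, KI hearts held 1.94-fold more Hrc RNA and 1.93-fold less Slc8a1 RNA than WT hearts, but the test of the difference between the genotypes' responses called neither gene.

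Depth was 23650189 to 32455184 reads on genes, as recovered from the table. WT sham mouse 1 stood apart: mitochondrial genes took 6.36% of its reads and 9.76% to 12.46% in the other 11 hearts, and among the WT sham hearts it had the most Atp2a2 and Hrc and the least Trdn, Ryr2, Pln and Slc8a1. WT TAC mouse 10 had a summed level of 6 fibroblast markers of 609.6 RPKM, against 134.4 and 270.7 in the other WT TAC hearts. Of the genes called in the comparison of WT groups, 3 of 3 kept their calls without either heart. Among the KI sham hearts, mouse 2 also had the most Hrc and the least Ryr2 and Slc8a1. It did not have the most Atp2a2 or the least Trdn or Pln, and its mitochondrial share was 10.56%. The 8 ventricular sarcomere markers were all present, as a heart sample should show, and summed to 12110 to 23670 RPKM over the 12 hearts. Atrial and fast skeletal muscle markers were not analysed here.

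Levels spanned more than 3 orders of magnitude. In WT sham hearts Atp2a2 had the highest mean, 3389 ± 489 RPKM (SD, n = 3), followed by Jph2 at 437 ± 14.7. Hrc (208 ± 48.0), Pln (186 ± 25.6) and Casq2 (165 ± 14.4) came next, and the ranges of these neighbours overlapped. Ryr2 stood at 103 ± 26.7, Slc8a1 at 14.2 ± 1.93, Trdn at 7.81 ± 4.29, Asph at 6.42 ± 0.344 and Casq1 at 1.16 ± 0.315 RPKM. Of these lower neighbours, Trdn and Asph overlapped. In WT TAC hearts Hrc came sixth, below Casq2, Pln and Ryr2, and its range overlapped that of Ryr2. In KI sham hearts the order was that of WT sham except that Pln and Hrc, which overlapped, changed places. In KI TAC hearts Casq2 (244 ± 83.9) and Jph2 (242 ± 108) came after Atp2a2 with overlapping ranges.

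Depth behind these levels ranged widely. Atp2a2 alone took 1.1% to 2.4% of all reads on genes, Ryr2 had 50710 to 118486 reads per heart, and Casq1 had 44 to 177, so its values carry the largest counting error of the 10.

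**Figure D1:**
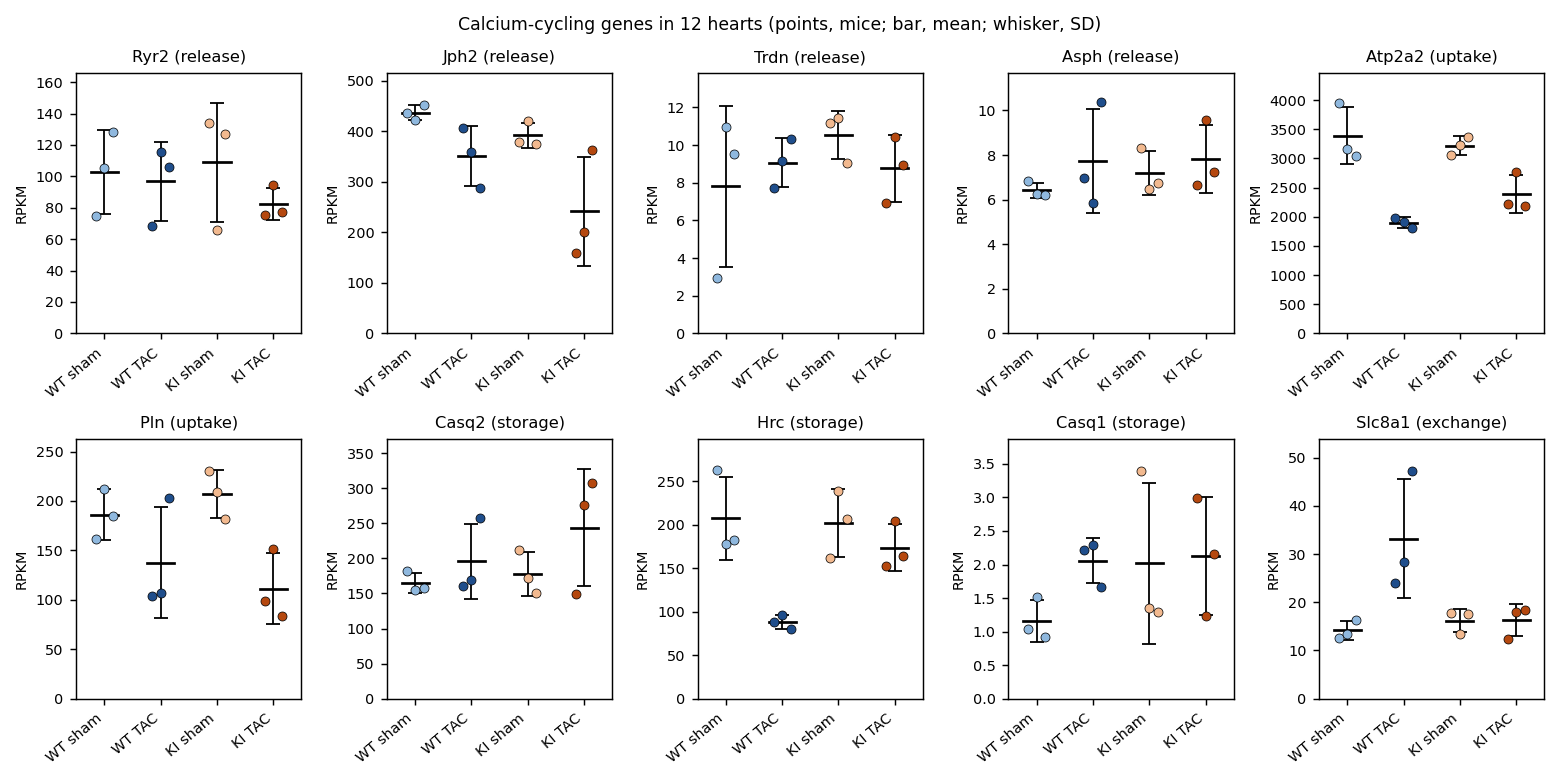
RPKM of the 10 genes (y axis, linear, from 0, its own scale in each panel) in the 12 hearts by group (x axis), with the mean as a bar and the SD as a whisker. WT TAC hearts lie below WT sham hearts for Atp2a2 and Hrc and above them for Slc8a1, while the KI TAC and KI sham hearts overlap for Hrc and Slc8a1.

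The promoters of the 4 genes besides Atp2a2 that passed a test are shown, because these are the genes whose RNA differed between groups. RefSeq promoter windows on GRCm38.p6, 250 bases before to 50 bases after the start site, were found for 7 of the 10 genes (Casq1, Jph2, Casq2, Hrc, Pln, Ryr2 and Slc8a1). Hrc lies at chr7:45335019-45335318 (plus strand), Slc8a1 at chr17:81738338-81738637 (minus strand), Pln at chr10:53337436-53337735 (plus strand) and Jph2 at chr2:163397944-163398243 (minus strand). Each is printed 5′ to 3′ along the gene, and capitals mark matches on either strand to 5 short motifs. The letters TATAAA are those of a promoter box that sets the start of transcription. The letters CANNTG are an E box. The motifs AGATAA and also TGATAA hold the core letters that GATA factors read. The motif CATTCC is bound by TEAD factors.
Hrc: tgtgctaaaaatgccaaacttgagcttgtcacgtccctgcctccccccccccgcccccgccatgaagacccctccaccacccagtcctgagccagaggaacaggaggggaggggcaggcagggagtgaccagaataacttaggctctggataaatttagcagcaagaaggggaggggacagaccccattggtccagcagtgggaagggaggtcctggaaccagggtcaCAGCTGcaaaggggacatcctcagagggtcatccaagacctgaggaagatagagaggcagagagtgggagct
Slc8a1: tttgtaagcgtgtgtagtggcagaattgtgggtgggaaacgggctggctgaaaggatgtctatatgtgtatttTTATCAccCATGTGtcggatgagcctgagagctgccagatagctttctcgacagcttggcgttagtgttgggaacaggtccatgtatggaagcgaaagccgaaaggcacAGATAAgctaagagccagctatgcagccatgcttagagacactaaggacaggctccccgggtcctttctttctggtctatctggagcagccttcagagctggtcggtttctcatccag
Pln: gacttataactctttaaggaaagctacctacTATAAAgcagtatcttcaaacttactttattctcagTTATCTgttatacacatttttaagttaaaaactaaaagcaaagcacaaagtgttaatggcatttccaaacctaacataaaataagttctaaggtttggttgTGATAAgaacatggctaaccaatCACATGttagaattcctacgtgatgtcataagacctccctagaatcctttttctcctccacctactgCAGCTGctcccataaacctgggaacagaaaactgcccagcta
Jph2: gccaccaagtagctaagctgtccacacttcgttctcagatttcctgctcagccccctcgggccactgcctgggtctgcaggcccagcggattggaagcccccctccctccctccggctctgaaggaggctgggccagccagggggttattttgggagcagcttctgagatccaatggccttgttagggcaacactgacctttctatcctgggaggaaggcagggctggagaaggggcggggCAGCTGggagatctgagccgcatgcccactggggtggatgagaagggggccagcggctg
Pln held the most kinds of match, with TATAAA at -219, AGATAA at -183, TGATAA at -82 and CANNTG at -59 and 9 from the start site. Slc8a1 held TGATAA at -177, CANNTG at -169 and AGATAA at -68, while Hrc and Jph2 each held a single CANNTG, at -22 and -9. CATTCC was found in none of the 7 windows. Of all 32851 promoter windows, 72.3% hold CANNTG, 13.6% TATAAA, 11.2% AGATAA, 9.1% TGATAA and 14.7% CATTCC, so an E box is the common case. These matches are letters in a window and were not tested for binding.

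The first comparison asks what 9 h of pressure overload does to these genes in WT hearts. Of the 10 genes, 1 rose and 2 fell, where 6.96% of all genes tested rose and 4.6% fell. The median log2 difference was 0.06 over the 10 genes and 0.04 over all genes tested. Of all calls 60.2% were higher, against 48.1% under quantile normalization, 50.2% under median-ratio scaling and 90.6% under sarcomere scaling.

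Slc8a1 encodes the sodium-calcium exchanger NCX1 (ENSMUSG00000054640, chromosome 17, 81373105 to 81738377, minus strand, GRCm38). It measured 12.7, 13.5 and 16.3 RPKM in the WT sham hearts and 24.1, 28.3 and 47.3 RPKM in the WT TAC hearts. Every WT TAC heart lay above every WT sham heart. The rise was 1.12 ± 0.24 on the log2(RPKM + 1) scale (SE), or 2.18-fold (limma, Benjamini-Hochberg adjusted p = 0.00985, 95% interval 0.60 to 1.64). The highest value came from WT TAC mouse 10, without which the rise was 0.85 (adjusted p = 0.0218), and without WT sham mouse 1 it was 1.05 (adjusted p = 0.0364).

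Hrc encodes the histidine-rich calcium-binding protein, which binds calcium in the lumen of the store and also contacts SERCA2a (ENSMUSG00000038239, chromosome 7, 45335290 to 45338974, plus strand). It measured 263, 178 and 182 RPKM in the WT sham hearts and 88.6, 96.3 and 80.5 RPKM in the WT TAC hearts. The groups did not overlap, and the WT TAC values lay close together. The log2 difference was -1.20 ± 0.22, a 2.30-fold fall (adjusted p = 0.00383). Without WT sham mouse 1, the highest heart, the change was -1.02 (adjusted p = 0.0156), and without WT TAC mouse 10 it was -1.14 (adjusted p = 0.0102).

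Atp2a2 (ENSMUSG00000029467, chromosome 5, 122453513 to 122502225, minus strand) measured 3950, 3166 and 3050 RPKM in the WT sham hearts and 1986, 1909 and 1808 RPKM in the WT TAC hearts. All WT TAC hearts were lower than all WT sham hearts. The log2 difference was -0.83 ± 0.19, a 1.77-fold fall (adjusted p = 0.0142), and the change was -0.71 (adjusted p = 0.0357) without WT sham mouse 1 and -0.79 (adjusted p = 0.0346) without WT TAC mouse 10. In the same comparison the median log2 difference of 8 sarcomere markers was -0.50, and its part in the Atp2a2 result was not tested. The call for Atp2a2 was lost under quantile normalization (-0.33, adjusted p = 0.443), when libraries were scaled to sarcomere genes (-0.42, adjusted p = 0.17) and without WT TAC mouse 7 (-0.86, adjusted p = 0.0505).

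The other genes did not pass the test in WT hearts. Pln, the SERCA2a inhibitor, measured 161, 213 and 185 RPKM in the sham hearts and 104, 106 and 203 RPKM in the TAC hearts, so that mouse 10 alone kept the groups overlapping (log2 difference -0.50 ± 0.28, adjusted p = 0.264). Without mouse 10 the Pln difference was -0.81, still short of the threshold (adjusted p = 0.0513). Jph2 encodes junctophilin 2, which holds the store membrane close to the T-tubule. It measured 423 to 453 RPKM in the sham hearts and 287 to 406 RPKM in the TAC hearts, without overlap (-0.33 ± 0.26, adjusted p = 0.435). Casq1, the calsequestrin form typical of skeletal muscle, measured 0.923 to 1.52 RPKM in the sham hearts and 1.67 to 2.29 RPKM in the TAC hearts, also without overlap (0.50 ± 0.25, adjusted p = 0.209). In all, 5 of the 10 genes had no overlap between the WT groups, 2 higher and 3 lower, where 35.1% of all genes tested had none.

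Ryr2, the release channel, differed by less than its spread: 74.9, 105 and 128 RPKM in WT sham hearts and 68.5, 116 and 106 RPKM in WT TAC hearts (log2 difference -0.09 ± 0.29). Its 95% interval, -0.72 to 0.55, leaves room for a change of either sign. Casq2, the main calcium store protein of the heart, showed 155 to 181 RPKM in sham hearts and 161 to 258 RPKM in TAC hearts (0.22 ± 0.27), and the difference was 0.0050 without WT TAC mouse 10. Trdn encodes triadin, which anchors calsequestrin to the release channel. It measured 2.93, 11.0 and 9.55 RPKM in sham hearts and 7.72 to 10.4 RPKM in TAC hearts, a difference of 0.34 ± 0.32 that became -0.17 without WT sham mouse 1. Asph, whose locus encodes junctin as well as aspartate beta-hydroxylase, measured 6.19 to 6.82 RPKM in sham hearts and 5.87 to 10.4 RPKM in TAC hearts (0.20 ± 0.20), or -0.0034 without WT TAC mouse 10, and gene-level values do not separate its products.

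In the KI hearts the same surgery was compared with KI sham. None of the 10 genes rose and 2 fell, where 8.57% of all genes tested rose and 14.7% fell. The median log2 difference was -0.23 over the 10 genes and -0.10 over all genes tested. Of all calls 36.8% were higher, against 48.3%, 55.0% and 25.9% under quantile normalization, median-ratio scaling and sarcomere scaling. The 2 comparisons within genotype share no mice.

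Pln (ENSMUSG00000038583, chromosome 10, 53337667 to 53345987, plus strand) measured 230, 209 and 182 RPKM in the KI sham hearts and 99.0, 152 and 83.2 RPKM in the KI TAC hearts. The KI TAC hearts were all below the KI sham hearts. Pln changed by -0.93 ± 0.28 on the log2 scale, a 1.90-fold fall (adjusted p = 0.0281, 95% interval -1.53 to -0.33). The adjusted p was above 0.05 in 6 of 19 other settings, among them median-ratio scaling (adjusted p = 0.0629) and leaving out KI TAC mouse 7 (adjusted p = 0.0915). Exons of genes on the opposite strand, Cep85l and Gm47644, cover 64.7% of Pln's exon bases, and whether counting used the strand is not given in the sources used here.

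Jph2 (ENSMUSG00000017817, chromosome 2, 163336242 to 163397993, minus strand) measured 380, 421 and 375 RPKM in the KI sham hearts and 160, 201 and 364 RPKM in the KI TAC hearts. The groups did not overlap, but KI TAC mouse 7 lay just below the lowest KI sham heart. The change was -0.78 ± 0.26 (adjusted p = 0.0442, 1.72-fold lower), and it remained past the threshold in 7 of 19 other settings. Without KI TAC mouse 5, the lowest heart, it was -0.53 (adjusted p = 0.171).

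Atp2a2 measured 3055, 3223 and 3377 RPKM in the KI sham hearts and 2213, 2772 and 2191 RPKM in the KI TAC hearts. Each KI TAC heart was again lower, but the difference of -0.44 ± 0.19 did not pass the test (adjusted p = 0.116, 95% interval -0.85 to -0.02). With Pln and Jph2, Atp2a2 made 3 genes without overlap between the KI groups, all lower, where 38.3% of all genes tested had none. Hrc measured 161, 239 and 206 RPKM in KI sham hearts and 153, 204 and 164 RPKM in KI TAC hearts (-0.21 ± 0.22, adjusted p = 0.513). Slc8a1 measured 17.7, 13.4 and 17.5 RPKM in KI sham hearts and 12.4, 18.0 and 18.4 RPKM in KI TAC hearts, a log2 difference of -0.0049 with a 95% interval of -0.52 to 0.52.

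For the remaining genes the KI groups overlapped. Ryr2 ranged from 65.6 to 134 RPKM in KI sham hearts and from 75.3 to 94.4 RPKM in KI TAC hearts (-0.34 ± 0.29). Casq2 ranged from 150 to 212 RPKM and from 149 to 307 RPKM in the same order (0.40 ± 0.27), and its 2 highest hearts of the 12 were KI TAC mice 6 and 7. Trdn ranged from 9.06 to 11.4 RPKM and from 6.91 to 10.4 RPKM (-0.25 ± 0.32). Asph (0.10 ± 0.20) and Casq1 (0.08 ± 0.25) were the genes nearest to no difference after Slc8a1.

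**Figure D2:**
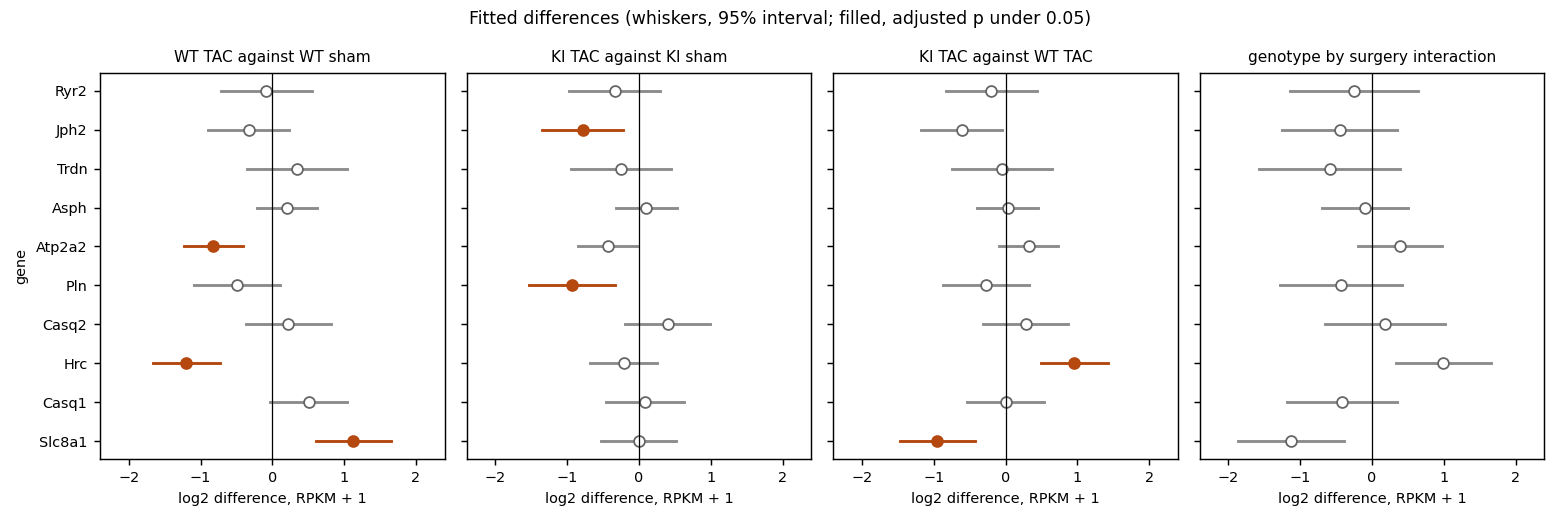
Fitted differences of the 10 genes on the log2(RPKM + 1) scale (x axis) with 95% intervals, for TAC against sham in WT and then in KI hearts, for KI TAC against WT TAC and for the difference between the 2 responses; filled points have an adjusted p under 0.05. Hrc and Slc8a1 are filled in WT hearts and, with opposite signs, between the TAC groups, Pln and Jph2 are filled in KI hearts, and no point is filled for the difference between responses.

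The KI TAC hearts were then set against the WT TAC hearts, a comparison that shares its samples with the comparisons above. Of the 10 genes, 1 was higher and 1 lower in KI TAC hearts, where 2.92% of all genes tested were higher and 8.13% lower. The median difference was -0.03 over the 10 genes and -0.12 over all genes tested. Of all calls 26.4% were higher in KI TAC hearts, against 46.0%, 58.6% and 1.4% under the other 3 scalings in that order.

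Hrc was higher in each KI TAC heart (153 to 204 RPKM) than in each WT TAC heart (80.5 to 96.3 RPKM), by 0.96 ± 0.22 on the log2 scale (adjusted p = 0.0188), and by 0.89 (adjusted p = 0.0476) without WT TAC mouse 10. That call was lost when libraries were scaled to sarcomere genes (0.38, adjusted p = 0.1), without WT TAC mouse 7 (0.96, adjusted p = 0.0851) and without KI TAC mouse 6 (0.84, adjusted p = 0.09). Slc8a1 was lower in each KI TAC heart (12.4 to 18.4 RPKM) than in each WT TAC heart (24.1 to 47.3 RPKM), with a log2 difference of -0.95 ± 0.24 (adjusted p = 0.0269). The difference in Slc8a1 was -0.67 (adjusted p = 0.0769) without WT TAC mouse 10, and also missed the threshold without KI TAC mouse 5 (adjusted p = 0.0814), without KI TAC mouse 6 (adjusted p = 0.0777) and in a fit of these groups alone (adjusted p = 0.0901).

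Jph2 had overlapping values in the TAC groups and a difference of -0.61 ± 0.26 that did not pass the test (adjusted p = 0.135). It passed under quantile normalization (-0.95), under sarcomere scaling (-1.20) and without KI TAC mouse 7 (-0.95). Atp2a2 was higher in every KI TAC heart than in every WT TAC heart, 2191 to 2772 against 1808 to 1986 RPKM, but the log2 difference of 0.32 ± 0.19 was not past the threshold (adjusted p = 0.271), and it turned to -0.10 under quantile normalization and -0.26 under sarcomere scaling. Pln (-0.28 ± 0.28) did not pass the test, except under sarcomere scaling (-0.86). Under sarcomere scaling the median difference over all genes was -0.57 in this comparison.

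**Figure D3:**
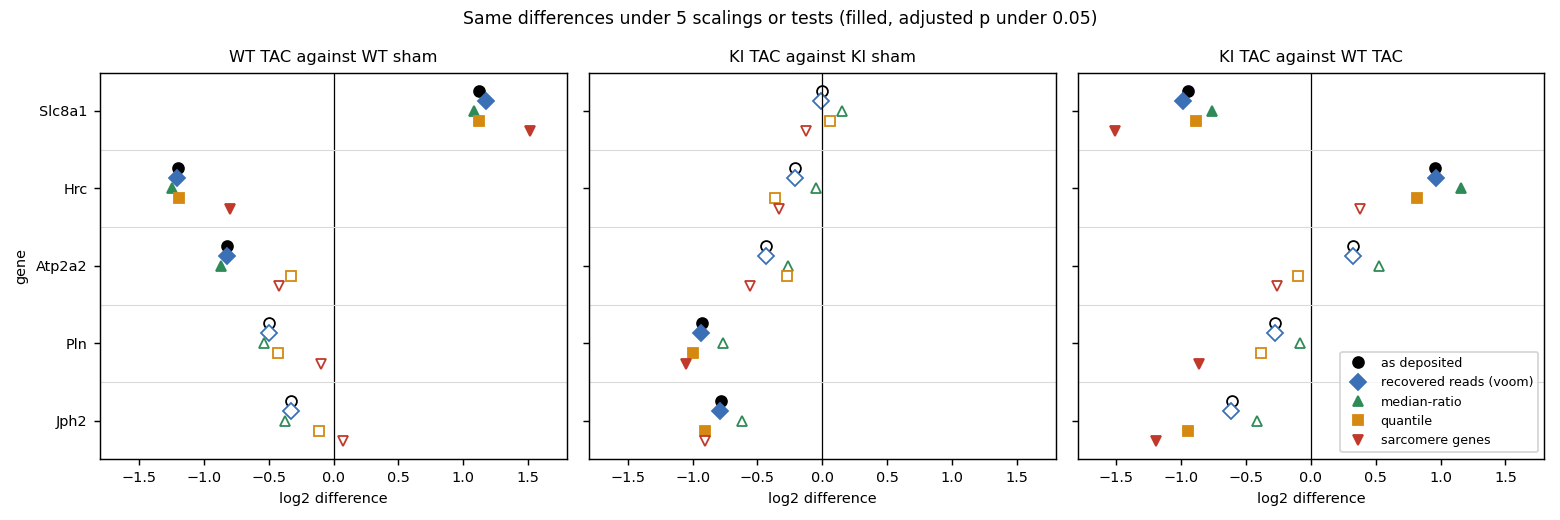
Log2 differences (x axis) of the 5 genes that passed a test, in 3 comparisons, for the deposited values, for limma-voom on the recovered reads and for 3 other ways of scaling the libraries; filled symbols have an adjusted p under 0.05. The WT differences of Hrc and Slc8a1 stay filled under all 5, and the WT difference of Atp2a2 is open under quantile and sarcomere scaling.

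The sham groups ask whether the genotypes differ without overload. None of the 10 genes was called between KI sham and WT sham hearts by limma on log2 values or by limma-voom, where 0.0178% of all genes tested were called. None had an unadjusted limma p under 0.05, where 37 of all 11240 genes did. The spread in this fit was shared over all 4 groups, TAC hearts included. The largest differences were those of Trdn (0.54 ± 0.32), which rests on WT sham mouse 1, and Casq1 (0.42 ± 0.25). For Atp2a2 the difference was -0.07 with a 95% interval of -0.48 to 0.35, and for Ryr2 it was 0.05 with an interval of -0.58 to 0.68. Jph2 was the 1 gene whose sham groups did not overlap, at 375 to 421 RPKM in KI and 423 to 453 RPKM in WT hearts (-0.16 ± 0.26), where 3.27% of all genes tested had no overlap.

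The difference between the 2 genotypes' responses to TAC was tested as an interaction. No gene of the 11240 was called, 0.0%, with 1668 at an unadjusted p under 0.05, and limma-voom also called 0. Among the 10 genes, Slc8a1 (-1.13 ± 0.34, unadjusted p = 0.00535, adjusted p = 0.179) and Hrc (0.99 ± 0.31, unadjusted p = 0.00628, adjusted p = 0.193) were the only ones with an unadjusted limma p under 0.05. The responses of WT and KI hearts are therefore given side by side and not called different for any gene.

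Levels were also compared as ratios of 2 genes within a heart, in which a single scaling factor per library cancels, apart from the 1 RPKM added before taking logs. Quantile normalization is not such a factor, and the ratios were not recomputed under it. In WT sham hearts the Slc8a1 level was 0.321%, 0.425% and 0.535% of the Atp2a2 level, and in WT TAC hearts it was 1.21%, 1.48% and 2.62%. The groups did not overlap, with a mean log2 ratio of -7.80 ± 0.36 (SD, n = 3) against -5.85 ± 0.56, a 3.86-fold higher ratio of exchanger to pump RNA. In KI hearts the shares were 0.416% to 0.580% in sham hearts and 0.562% to 0.839% in TAC hearts, which overlapped (log2 difference 0.43). KI TAC hearts lay below all WT TAC hearts for this ratio (-1.27). The exact permutation test, two-sided, gave p = 0.1 for the WT difference and for the difference between TAC groups, the smallest value that 3 against 3 mice allow, and an adjusted p of 0.5 over the 20 ratio tests made.

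The Pln level was 4.09% to 6.71% of Atp2a2 in WT sham and 5.23% to 11.2% in WT TAC hearts, and 5.39% to 7.54% in KI sham and 3.80% to 5.48% in KI TAC hearts, with overlap in every comparison. Ryr2 was 1.90% to 4.20% of Atp2a2 in WT sham hearts and 3.45% to 6.05% in WT TAC hearts. It was 2.04% to 4.39% in KI sham hearts and 3.40%, 3.41% and 3.54% in the KI TAC hearts. Casq2 stood at 123% to 242% of Ryr2 in WT sham, 146% to 243% in WT TAC, 118% to 261% in KI sham and 198% to 396% in KI TAC hearts, and the groups overlapped in every comparison. Casq1 never exceeded 2.01% of Casq2, so calsequestrin RNA was almost wholly of the cardiac form. Only the ratio of Slc8a1 to Atp2a2, in 2 of its 4 comparisons, separated groups without overlap among the 20 tests. The adjusted p of the permutation test was 0.5 in both. This ratio reuses the values of 2 genes that were each called in the WT comparison, so it is not separate support.

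**Figure D4:**
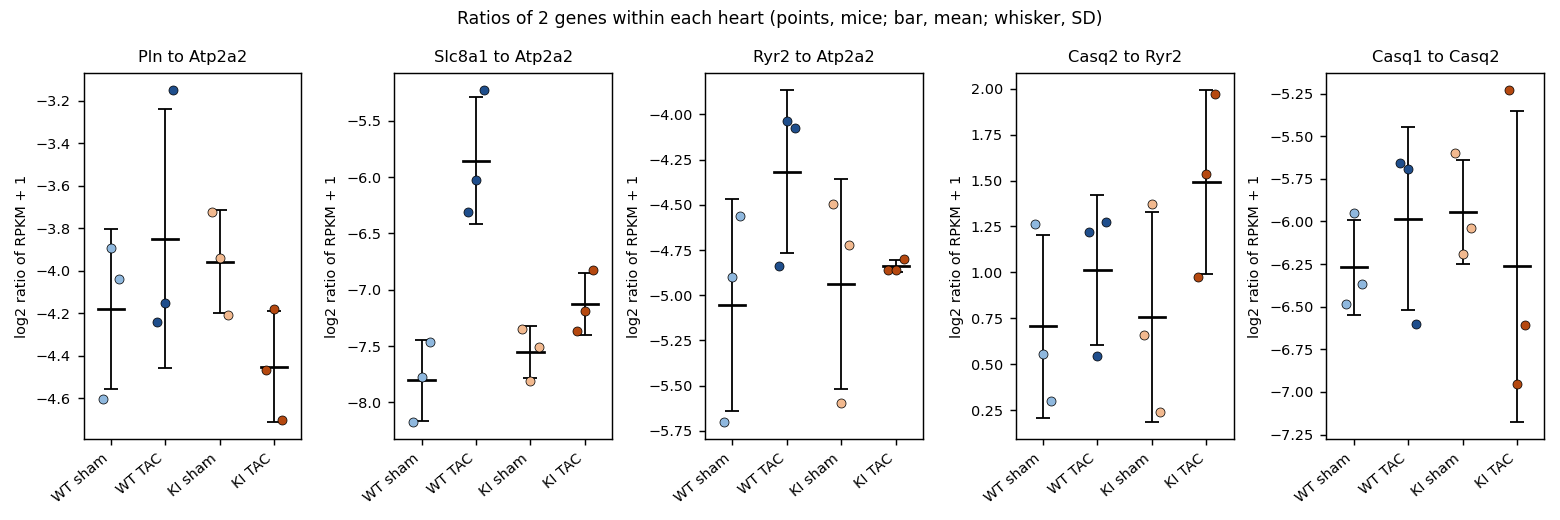
Log2 ratio of RPKM + 1 of 2 genes in the same heart (y axis) for 5 pairs of genes in the 4 groups (x axis), with the mean as a bar and the SD as a whisker. The ratio of Slc8a1 to Atp2a2 is higher in the 3 WT TAC hearts than in any other heart, and the other 4 ratios overlap between the groups compared.

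Other genes of calcium handling were taken from a list of 58, of which 51 were in the table and 48 were tested. In WT hearts 2 rose and 4 fell after TAC, where 6.96% and 4.6% of all genes tested did, and the median log2 difference was 0.21 against 0.04 over all genes. In KI hearts 5 rose and 5 fell, where 8.57% and 14.7% of all genes tested did, and the median was 0.04 against -0.10. Of the genes that regulate the pump, Sln (sarcolipin) was not analysed here, and Atp2a1, the pump of fast skeletal muscle, was at 0.176 to 0.429 RPKM and below the filter.

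In the release unit, 1 of 12 genes tested rose and 1 fell in WT hearts, and 4 rose and none fell in KI hearts. Calm2 encodes calmodulin, and how reads shared with related genes were counted bears on its level. It measured 12.4 to 18.3 RPKM in WT sham hearts and 23.9 to 30.6 RPKM in WT TAC hearts (0.79 ± 0.20, adjusted p = 0.0194). The values were 14.4 to 18.8 RPKM in KI sham hearts and 40.3 to 56.5 RPKM in KI TAC hearts (1.44 ± 0.20, adjusted p = 0.000292). Cav3, the caveolin of muscle, rose in KI hearts from 25.9 to 39.8 RPKM to 58.2, 77.0 and 165 RPKM (1.54 ± 0.31, adjusted p = 0.00371), and in WT hearts the difference was 0.78 ± 0.31 (adjusted p = 0.127). Of the store's potassium channels, Tmem38b (TRIC-B) rose in KI hearts (0.99 ± 0.29, adjusted p = 0.0237), with a difference of 0.36 ± 0.29 in WT hearts (adjusted p = 0.436). Tmem38a (TRIC-A) fell in WT hearts (-0.63 ± 0.19, adjusted p = 0.0493), and in KI hearts its difference was -0.50 ± 0.19 (adjusted p = 0.0757), with each KI TAC heart below each KI sham heart. The fourth gene that rose in KI hearts was Sri (sorcin), at 0.60 ± 0.21 and an adjusted p of 0.0498, named after its value was seen. Its difference in WT hearts was 0.61 ± 0.21 (adjusted p = 0.0738). For Sri the sham and TAC hearts overlapped in KI mice but not in WT mice. Fkbp1b, the ryanodine receptor's binding partner, was not analysed here.

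Among pump regulators, Strit1, which encodes the SERCA activator DWORF, fell in WT hearts from 10.9 to 14.4 RPKM to 3.62, 3.84 and 4.45 RPKM (log2 difference -1.48 ± 0.28, adjusted p = 0.00457). In KI hearts it measured 5.73, 15.3 and 11.8 RPKM in sham hearts and 10.2, 14.03 and 8.09 RPKM in TAC hearts (0.04 ± 0.28), so all KI TAC hearts were above all WT TAC hearts (1.22 ± 0.28, adjusted p = 0.0188). It was the 1 called gene among 4 pump genes tested.

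At the cell membrane, Rrad, an inhibitor of the L-type channel, rose after TAC in WT hearts (from a mean of 125 to 283 RPKM, 1.28 ± 0.30, adjusted p = 0.0149) and in KI hearts (from 134 to 267 RPKM, 0.98 ± 0.30, adjusted p = 0.0312). The channel subunits Cacna1c (-0.78 ± 0.21, adjusted p = 0.0181) and Cacnb2 (-0.93 ± 0.31, adjusted p = 0.0419) fell in KI hearts, and in WT hearts their differences were -0.37 ± 0.21 and 0.16 ± 0.31, not past the test.

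Of 11 kinases, phosphatases, phosphodiesterases and anchors tested, 1 was lower in WT hearts, the anchor Akap7 (-0.52 ± 0.15, adjusted p = 0.0362), and 2 were lower in KI hearts. The latter were Akap6, the anchor mAKAP, which measured 10.8 to 20.1 RPKM in KI sham hearts and 6.61 to 7.72 RPKM in KI TAC hearts (-1.03 ± 0.23, adjusted p = 0.00676), and Pde4d (-0.65 ± 0.19, adjusted p = 0.0237). Orai1, the store-operated channel, was the 1 called gene of 8 in the group of lumenal and mitochondrial calcium, and fell in KI hearts from a mean of 23.1 to 13.7 RPKM (-0.76 ± 0.25, adjusted p = 0.0418).

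Between KI TAC and WT TAC hearts 7 of the 48 were called, 2 higher and 5 lower, where 2.92% of all genes tested were higher and 8.13% lower. Strit1 and Calm2 (0.80 ± 0.20) were higher, and Akap6 (-1.35 ± 0.23), Orai1 (-1.09 ± 0.25), Cacnb2 (-1.05 ± 0.31), Speg (-1.11 ± 0.31) and Pde3a (-0.89 ± 0.25) were lower. Speg, a kinase of the junctional membrane, and Pde3a are named after their values were seen. None of the 48 was called between the sham groups or for the interaction, and none and 7 of them, respectively, had an unadjusted p under 0.05 there. Of all 11240 genes tested, 37 and 1668 did, in the same order.

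**Figure D5:**
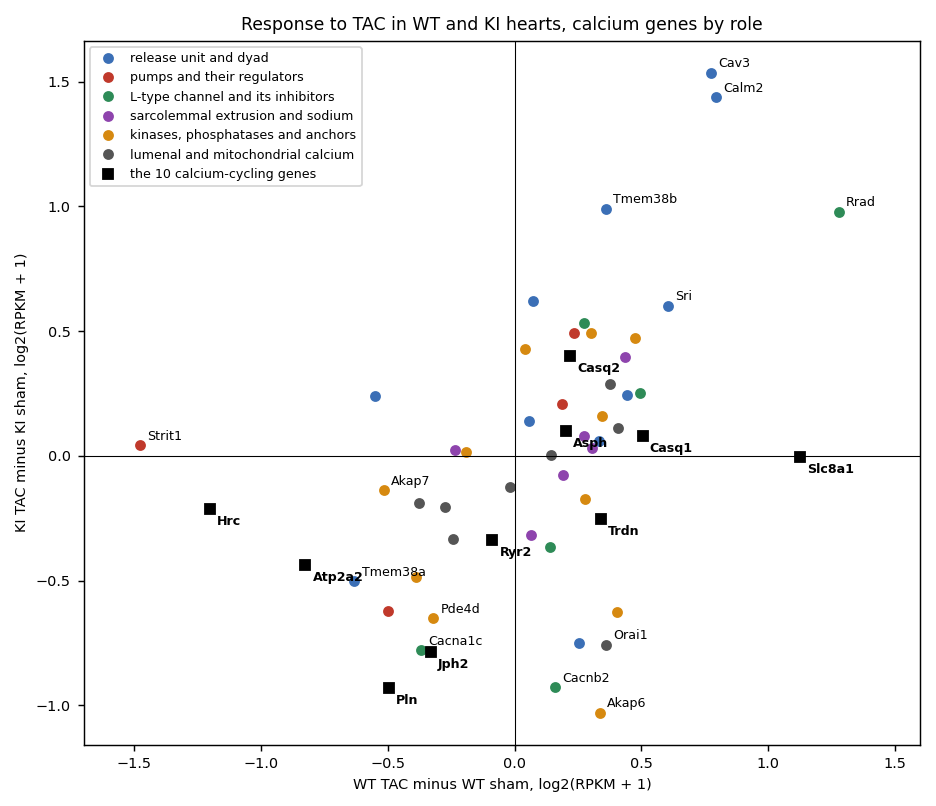
Log2 difference after TAC in WT hearts (x axis) and in KI hearts (y axis) for the 10 calcium-cycling genes (squares) and other calcium genes coloured by role; names mark the 10 and the others shown that were called in WT or KI hearts. Slc8a1 lies far to the right at the level of 0 for KI, Hrc and Strit1 far to the left, and Pln, Jph2, Cacna1c, Cacnb2 and Akap6 low.

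Expression likeness was measured over all 12 hearts as Pearson r of log2(RPKM + 1), a description over points that share groups and libraries. The genes most like Atp2a2 were Fam131a (r = 0.974), Pygm (0.974) and Mipep (0.966), and Pygm, muscle glycogen phosphorylase, went from 602 RPKM in WT sham to 324 in WT TAC and from 564 in KI sham to 413 in KI TAC hearts (group means). Those most like Slc8a1 were Parva (0.962), Hcfc2 (0.938) and Prep (0.934). Those most like Pln were Fgf13 (0.970), Gm20300 (0.958) and Ak3 (0.957). Ryr2 had less close partners, in Setbp1 (0.892), Abca1 (0.883) and Ptprb (0.881).

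These are bulk hearts, in which fewer muscle cells and less RNA per cell cannot be told apart. The median log2 difference of the 8 sarcomere markers was -0.50 in WT hearts, 0.13 in KI hearts and 0.72 between KI TAC and WT TAC hearts, with Myl2 and Tnni3 higher in the last and none called in the first 2. Between the TAC groups the leukocyte marker Csf1r (-0.91 ± 0.17, adjusted p = 0.00913) and the smooth muscle marker Cnn1 (-0.98 ± 0.25, adjusted p = 0.0261) were lower in KI TAC hearts. The other leukocyte markers tested were split and not called: Lyz2 (-0.84) and Cd68 (-0.55) were lower, S100a8 (0.68) and Itgam (0.06) higher. In that comparison the median log2 difference was -0.55 over the 5 leukocyte markers tested, -0.71 over 6 fibroblast markers, -0.22 over 5 endothelial markers and -0.23 over 3 smooth muscle markers, with no fibroblast or endothelial marker called. The summed sarcomere level in RPKM was 14360 to 18950 with sham surgery and 12110 to 23670 with TAC in WT hearts, and 15650 to 20280 and 15930 to 21510 in KI hearts. Summed leukocyte markers (6 of 6 in the table, 1 of them at 0 in 1 WT sham heart) were 61.4 to 108 RPKM with sham surgery and 131 to 182 RPKM with TAC in WT hearts, and 67.2 to 90.3 and 80.4 to 103 RPKM in KI hearts. Of the 5 leukocyte markers tested, 3 rose in WT hearts, and in KI hearts 2 rose and 1 fell. Summed fibroblast markers (6 of 6) were 113 to 171 RPKM (sham) and 134 to 610 RPKM (TAC) in WT hearts and 135 to 221 and 92.2 to 168 RPKM in KI hearts, with none called in WT hearts and 1 lower in KI hearts. Summed endothelial markers (5 of 5) were 158 to 218, 182 to 192, 144 to 232 and 176 to 181 RPKM for sham and TAC in WT and then in KI hearts, and none was called. Summed smooth muscle markers (3 of 3) were 4.56 to 7.63, 5.26 to 12.9, 3.46 to 4.66 and 4.85 to 5.68 RPKM, with 1 higher in WT TAC hearts than in WT sham hearts. The part of these markers in the results for the calcium genes was not tested.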

How the data were processed

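Per the labels, RNA of whole hearts was poly(A)-selected, and directional libraries were read from 1 end. The submitters' processing notes name Trimmomatic 0.39, HISAT2 2.2.1, HTSeq 0.6.1, edgeR 3.18.1, limma 3.32.10 and the build GRCm38. The deposited values are RPKM. The step from counts to RPKM, the filter that left 13552 genes and the strand setting of the counting are not given in the sources used here. The authors' own comparisons were not used.

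Exon lengths were taken from GENCODE M21 (GRCm38) for 13546 genes. Depth per mouse was recovered from low values, of which 97.9% to 98.2% were whole multiples of 1 read within 0.05. A linear model with 4 groups was fitted to log2(RPKM + 1) of the 12 mice with limma 3.58.1 (R 4.3.3, moderated with a mean trend), over 11240 genes that reached 1 RPKM in 3 or more mice. p-values were adjusted by Benjamini-Hochberg over these genes, with a threshold of 0.05. Log2 differences on this scale understate changes of low genes. Within-heart ratios were compared by exact permutation tests, two-sided.

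The genes, lists and tests were chosen with earlier results of these data known. Named were all 10 genes, up to 4 called genes per role with the largest change in WT or KI hearts from the list of other calcium genes, and the 3 genes most like Atp2a2, Ryr2, Pln and Slc8a1. Alternatives were a pseudocount of 0.1, no filter, quantile normalization, median-ratio scaling, scaling to the 8 ventricular sarcomere markers, a fit of the compared groups only, limma-voom on the recovered reads (11236 genes) and leaving out each mouse. Values of some genes of the list are not reported here. Promoters came from RefSeq, GRCm38.p6. Python 3.11.15, numpy 2.4.6, pandas 2.3.3 and matplotlib 3.10.9 were used.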

Additional observations from a re-analysis of the deposited data

How the results depend on the processing

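The WT differences of Hrc (-1.30 to -0.80) and Slc8a1 (0.85 to 1.51) were past the threshold in all 19 alternatives, that of Atp2a2 in 16 (-0.90 to -0.33). In KI hearts Pln passed in 13 (-1.17 to -0.74) and Jph2 in 7 (-1.12 to -0.53), and between TAC groups Hrc passed in 16 (0.38 to 1.15) and Slc8a1 in 15 (-1.51 to -0.67). No called difference changed sign. In 50 cases a difference that was not called did. Sarcomere scaling moved the median of all genes from 0.04 to 0.36 in WT hearts, from -0.10 to -0.20 in KI hearts and from -0.12 to -0.57 between TAC groups.

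Of the 10 genes, 2 were called in KI hearts, against 0 under median-ratio scaling, 1 under sarcomere scaling, 1 in a fit of the compared groups and 0 to 2 on leaving out a mouse (0 without any 1 KI sham mouse or KI TAC mouse 5). Between TAC groups 2 were called, against 1 in a fit of the compared groups and 0 to 3 on leaving out a mouse (0 without KI TAC mouse 6, 1 without KI TAC mouse 5 or WT TAC mouse 7 or 10). Of the other calcium genes, leaving out a mouse gave 1 to 7 calls in WT hearts (6 with all mice; 1 to 3 without any 1 WT sham mouse or WT TAC mouse 7 or 9), 3 to 12 in KI hearts (10 with all mice, 3 to 5 without KI sham mouse 1 or 3 or KI TAC mouse 6), 1 to 7 between TAC groups (7 with all mice, 1 without WT TAC mouse 7 or KI TAC mouse 6, 4 without mouse 3 of either sham group) and 0 to 1 for the interaction (0 with all mice, Cacnb2 without KI TAC mouse 7). Sarcomere scaling gave 6 calls in KI hearts and 22 between TAC groups, where a fit of the compared groups gave 2. Of all 11240 genes, sarcomere scaling called 417 higher and 1190 lower in KI hearts. Between TAC groups it called 76 higher and 5235 lower. Fits without a mouse hold fewer samples, and the cause of the other changes was not tested.

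A replicate block could be fitted only for the sham groups, which share mouse numbers, and it called 0 of the 10 genes and 0 of the other calcium genes. Deviations of same-numbered mice correlated at -0.225, -0.302 and 0.44. Being few and of mixed sign, these values cannot decide whether the numbers pair the mice. With 3 mice a group, the 95% intervals of the differences of the 10 genes within and between genotypes reach 0.41 (Atp2a2) to 0.70 (Trdn) to either side on the log2 scale. Casq1 rests on 44 to 177 reads per heart.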
